A study of Ovis aries with 18 samples.

Results

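The cytosolic ribosomal protein genes are described here in sheep blastocysts produced by rams that were fed methionine or a control diet. They were taken from the gene count table by name, as RPL or RPS followed by a number with an optional A, X, Y or L, or as RPLP0, RPLP1, RPLP2 and RPSA, with the RPS6K kinases left out. This gave 67 of the 20092 genes, 27 of the small subunit and 40 of the large subunit. All 67 passed the filter on low counts, as did 16488 genes in all. RPSA, RPL10, RPL17, RPL23, RPL23A, RPL34, RPL39, RPL41, RPS25 and RPS28 were not analysed here, and RPL26 was not matched in the RefSeq gene table, which held the other 66 symbols.

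The sires were Polypay rams. Ram410, Ram423 and Ram444 ate a general basal diet, and Ram424, Ram498 and Ram511 ate that diet with a 0.22% top-dress of rumen-protected methionine (1.5 g), which was fed before puberty and ended before breeding. Superovulated ewes were mated naturally and blastocysts, which hold an inner cell mass and a trophectoderm, were flushed and put into 12 pools of 5 embryos, 6 from control rams (Embryo410_1, Embryo410_2, Embryo423_1, Embryo423_2, Embryo444_1, Embryo444_2) and 6 from treatment sires (Embryo424_1 to Embryo424_4, Embryo498_1, Embryo511_1), where the first number names the ram. RNA was amplified over the whole transcriptome before sequencing, and 1017847 to 2398589 reads were counted on genes in a pool. The study reports many more sequenced reads per pool, so the shares and levels given here rest on a small part of them. Ram424 gave 4 of the 6 methionine pools, so its pools share a sire, and p-values over pools take them as independent.

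The ribosome is the machine that reads messenger RNA and joins amino acids into protein. Its small subunit decodes the message and its large subunit forms the peptide bond, and each of the proteins is normally made in step with the others, so that their messenger RNAs rank among the more abundant and more evenly expressed of a growing cell. After the embryonic genome is switched on, the early embryo makes its own ribosomes, and the demand is high in the blastocyst.

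Ribosomal protein genes held about 3% of the reads counted on genes in most pools and far less in 2 of them. The share of all gene counts on the 67 genes was 3.01% in pool Embryo410_1, 2.77% in Embryo410_2, 3.68% in Embryo423_1, 3.18% in Embryo423_2 and 2.84% in Embryo444_1, but 0.233% in Embryo444_2. In embryos from treatment sires it was 3.77%, 3.64%, 3.44% and 2.62% in Embryo424_1 to Embryo424_4, 2.09% in Embryo498_1 and 0.963% in Embryo511_1. Pool Embryo444_2 thus lay far below its sister pool of the same ram, and Embryo511_1, the only pool of Ram511, lay below all pools but Embryo444_2. The 95% Wilson intervals of these shares were at most 0.030 points to either side and cover counting error only. The mean share was 2.62% ± 1.21 (SD, n = 6) with control rams and 2.75% ± 1.09 (SD, n = 6) with treatment sires, and the ranges overlapped. Without Embryo444_2 and Embryo511_1 the means were 3.10% ± 0.363 and 3.11% ± 0.726 (SD, n = 5 each). In bulk samples, less RNA per cell cannot be told apart from fewer cells of a type.

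**Figure D1:**
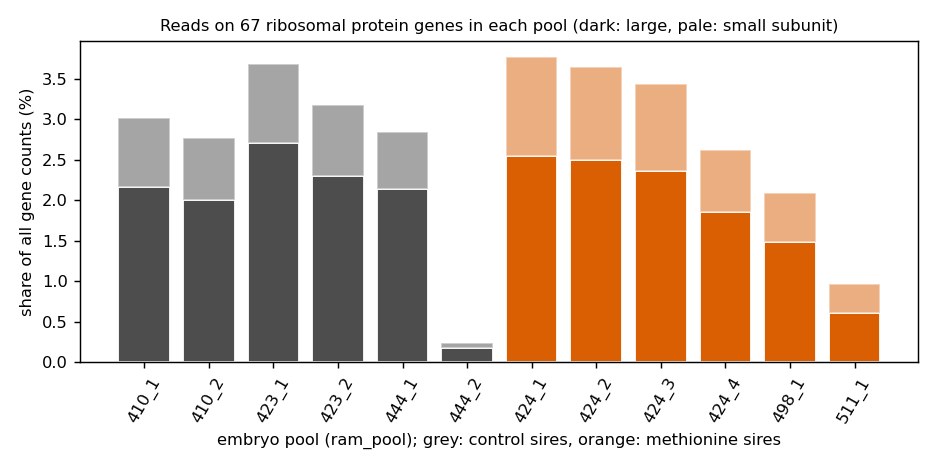
Bars show the share of all gene counts (percent, y axis) on the 67 ribosomal protein genes in each embryo pool (x axis, labelled by ram and pool number), with the 40 large subunit genes dark and the 27 small subunit genes pale, grey for control rams and orange for treatment sires. Pools Embryo444_2 (0.233%) and Embryo511_1 (0.963%) sit below the other 10, which range from 2.09% to 3.77%.

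The loss of reads in pool Embryo444_2 reached nearly the whole set. The values are CPM, reads scaled to a common library size by TMM, and each pool was compared with the median of the 10 pools other than Embryo444_2 and Embryo511_1. Of the 67 genes, 61 had their lowest value in Embryo444_2, where 19.0% of all genes tested did, and 5 had it in Embryo511_1, where 19.3% of all genes did. The median log2 ratio of the 67 genes was -3.92 in Embryo444_2 and -1.77 in Embryo511_1, while that of all genes was 0.05 and -0.01. In Embryo444_2, 63 of the 67 genes were under 50% of the median and 42 were under 10%, against 19.7% and 2.69% of all genes. In Embryo511_1, 52 were under 50%, against 21.7% of all genes. The small subunit genes had a median log2 ratio of -4.68 in Embryo444_2 and the large subunit genes one of -3.61.

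Single genes showed how uneven this was. RPLP0, the scaffold of the stalk that recruits elongation factors, was at 29.7 CPM in Embryo444_2 and 96.2 CPM in Embryo511_1, against 948 to 2466 CPM in the other 10 pools. Its partner RPLP1 was at 12.7 and 43.6 CPM, against 196 to 419 CPM. RPL11, which with RPL5 forms the particle of the 5S ribosomal RNA and can bind MDM2, was at 5.66 CPM in Embryo444_2 and 41.6 CPM in Embryo511_1, against 261 to 819 CPM elsewhere. For these genes both pools lay outside the range of the other 10. RPS21, a small subunit protein, had no count in Embryo444_2, where 3 counts correspond to 2.12 CPM, so that it was at least 55.3-fold lower than the median of 117 CPM in the 10 pools. RPL26 and RPS16 also had 3 or fewer counts there.

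A few genes of the set were little reduced or not reduced. RPL3L, the copy of RPL3 that is known from heart and skeletal muscle, was at 22.0 CPM in Embryo444_2 and 34.7 CPM in Embryo511_1, against 5.74 to 62.0 CPM in the other pools. RPS29 was at 29.7 CPM in Embryo444_2, within its range of 16.3 to 46.8 CPM, and RPL22, an RNA-binding protein of the large subunit, was at 32.6 CPM against 34.0 to 67.4 CPM. The 5 genes with the fewest scaled reads on average, a quantity not corrected for transcript length, were RPL3L, RPS29, RPL35A, RPS15A and RPL22, and 4 of them were also the 4 least reduced in Embryo444_2. RPS12, a small subunit protein, was at 907 CPM in Embryo511_1, above its range of 172 to 478 CPM, although it was at 19.1 CPM in Embryo444_2. RPL22 showed the reverse, with 4.96 CPM in Embryo511_1. The order of the genes within a pool followed that of the other pools closely in 10 pools (Spearman's rho of 0.943 to 0.976 across the 67 genes, which are not independent replicates), less so in Embryo511_1 (0.811) and weakly in Embryo444_2 (0.280).

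**Figure D2:**
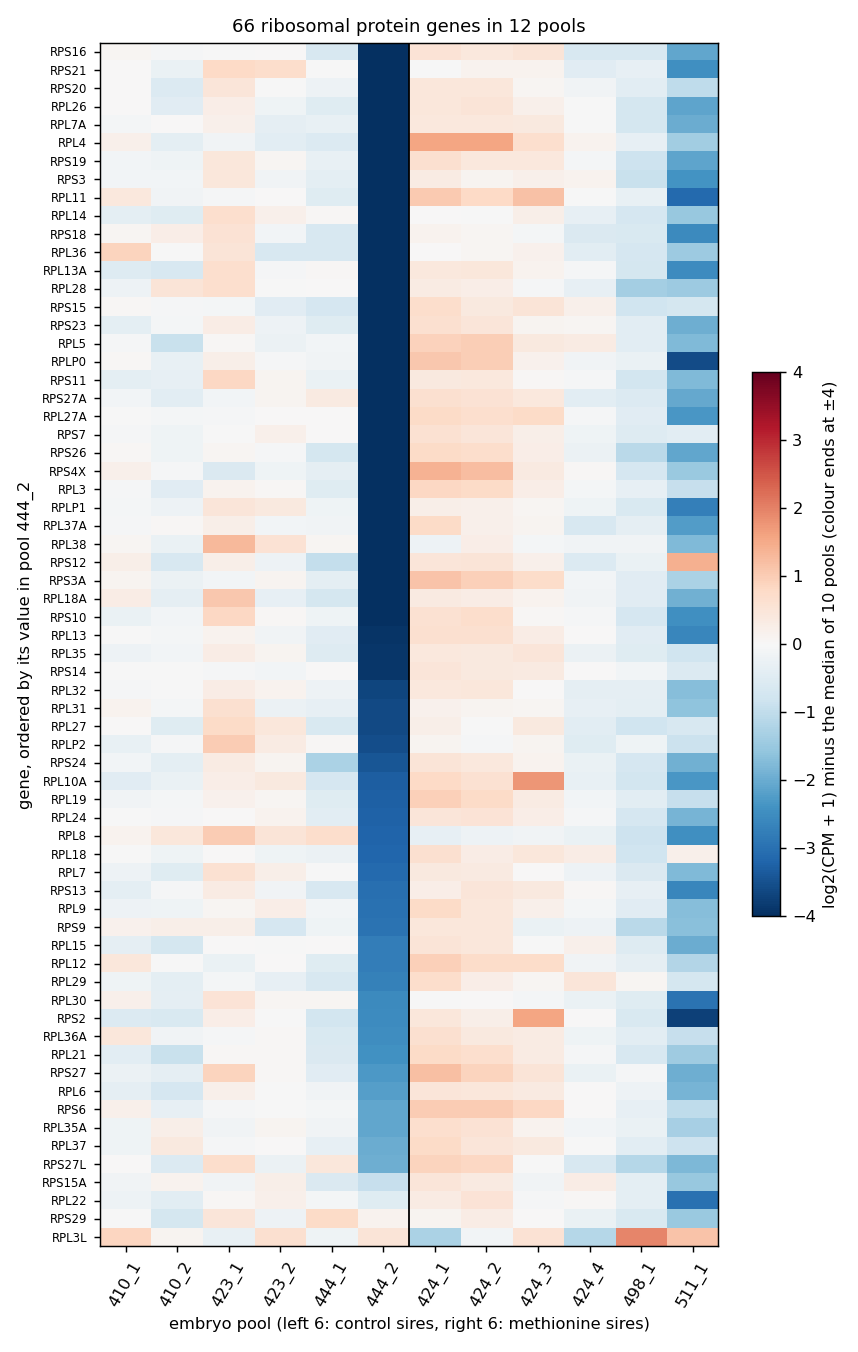
Each of the 66 rows is a ribosomal protein gene and each column an embryo pool, with control rams on the left of the line and treatment sires on the right. Colour gives log2(CPM + 1) minus the median of the 10 pools other than Embryo444_2 and Embryo511_1, and its scale ends at ±4. The column of Embryo444_2 is dark blue for most genes, that of Embryo511_1 is paler blue with RPS12 red, and the bottom rows (RPS15A, RPL22, RPS29 and RPL3L) hold the genes least reduced in Embryo444_2.

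Other abundant transcripts were low in the same pools. Among the 1956 other genes with a median of at least 100 CPM in the 10 pools, the median log2 ratio was -0.90 in Embryo444_2 and -0.71 in Embryo511_1. The 57 ribosomal protein genes with at least 100 CPM had -4.08 and -1.77. Among the 87 other genes with at least 500 CPM the median ratio was -4.01 and -2.51, and the 15 ribosomal protein genes of that level had -5.24 and -1.77. These levels were set on the same 10 pools that the ratio is taken to, which favours ratios below 0. KRT8, the keratin of trophectoderm, was at 116 CPM in Embryo444_2 and 42.6 CPM in Embryo511_1, and the summed CPM of the 7 trophectoderm markers measured, of 8 listed, was 224 and 194 there, against 5250 to 14300 in the other pools. Of 6 epiblast markers 3 were measured, among them POU5F1, which was at 14.2 and 39.7 CPM, against 132 to 521 CPM. The other epiblast markers were not low there, with PRDM14 at 43.9 and 83.3 CPM, above the 14.5 to 37.9 CPM of the 10 pools, and NANOG at 9.91 and 7.93 CPM, within their 5.10 to 16.3 CPM. No measured marker of either list was at 0 in all pools. The 8 very long genes used as a sign of unspliced or genomic reads summed to 2830 CPM in Embryo444_2 and 2470 CPM in Embryo511_1, against 1520 to 2530 CPM. TNP1, a gene of late sperm formation, was at 1008 CPM in Embryo511_1 and at 1.20 to 15.6 CPM in the other 11 pools, while the other sperm genes measured were within the range of those pools in Embryo511_1 (AKAP4 at 53.5 CPM and ODF1 at 3.97 CPM). Of the leukocyte markers measured, PTPRC was at 254 CPM in Embryo511_1 and 40.2 to 121 CPM elsewhere, and CD68 was at 1.98 CPM there and 6.37 to 38.8 CPM elsewhere. The part of these features in the low ribosomal protein values was not tested.

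To evaluate whether the paternal diet moved ribosomal protein genes in the embryos, the pools of both diets were compared in edgeR over the whole table. No ribosomal protein gene was called at a false discovery rate (FDR) under 0.05, nor was any other gene (0.0% of 16488), and 1306 genes had an unadjusted p under 0.05 in this test. DESeq2 called 16 genes and the likelihood-ratio test of edgeR called 5, none of them of the set. The smallest FDR of the 67 genes was 0.620 for RPL29. Of the 67 log2 fold changes, 53 were above 0, against 50.5% of all genes, and none reached a call. Their median was 0.31, against 0.01 for all genes. The genes of the set rose and fell together over the 12 pools, with a median pairwise Pearson correlation of 0.915. Each diet also held a pool with few ribosomal protein reads, which moves nearly the whole set at once. The count above 0 is thus not one of independent genes and does not show a direction with diet. At an unadjusted p under 0.05, 1 gene was higher, where 3.55% of all genes were, and 0 were lower, where 4.37% were. For 0 of the 67 did the CPM of the diets fail to overlap, against 0.352% of all genes. The median standard error of the 67 log2 fold changes was 0.54, and their median biological coefficient of variation was 0.634, against 0.408 for all genes.

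RPL29, a protein of the large subunit that was first known for binding heparin, was the gene with that p. Its level was 74.5, 63.7, 78.6, 65.4, 52.5 and 12.0 CPM in pools Embryo410_1 to Embryo444_2, and 138, 100, 88.2, 118, 88.5 and 50.6 CPM in Embryo424_1 to Embryo511_1. Each methionine pool but Embryo511_1 lay above all 6 control pools. The log2 fold change was 0.75 ± 0.35 (SE), with p = 0.0472 in edgeR (FDR = 0.620) and p = 0.0390 in an exact two-sided permutation test over the 12 pools. The same exact test over the 6 rams gave p = 0.400, where the smallest p it can give is 0.1. In edgeR, the unadjusted p of RPL29 was over 0.05 without any of the pools other than Embryo410_1, Embryo423_1, Embryo444_2 and Embryo511_1.

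Because Embryo444_2 and Embryo511_1 lay on opposite sides of the comparison, it was repeated on the other 10 pools, a choice made after the values were seen. Again no ribosomal protein gene reached an FDR under 0.05 in edgeR, where 1 of 16161 genes did (0.00619%), and the smallest FDR of the set was 0.269. At an unadjusted p under 0.05, 10 genes were higher, where 5.74% of all genes were, and 1 was lower, where 6.18% were. With the ram as a random effect on these pools 2 were higher (RPL29 and RPL4) and 1 lower (RPL8), where 549 and 547 of all 16161 genes were. Without that effect but with Embryo424_2 also left out, 3 were higher and 1 lower, where 623 and 676 of 16006 genes were. Among the 10 genes higher with diet as the only term were RPL29, RPL4, RPL5, RPS6, RPS4X, RPS3A, RPL11, RPS2 and RPL21, and the lower one was RPL8. Of the 67 log2 fold changes 50 were above 0, against 47.0% of all genes, with a median of 0.23 against -0.03. Here too the genes varied together (median pairwise Pearson correlation of 0.642), so this count is not one of independent genes. The diets did not overlap in the CPM of 2 of the 67 genes, RPL29 and RPL8, against 1.77% of all genes. With DESeq2 on these 10 pools RPL8 was the only gene of the set with an FDR under 0.05 (FDR = 0.00594). That fit called 103 of all 16161 genes.

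**Figure D3:**
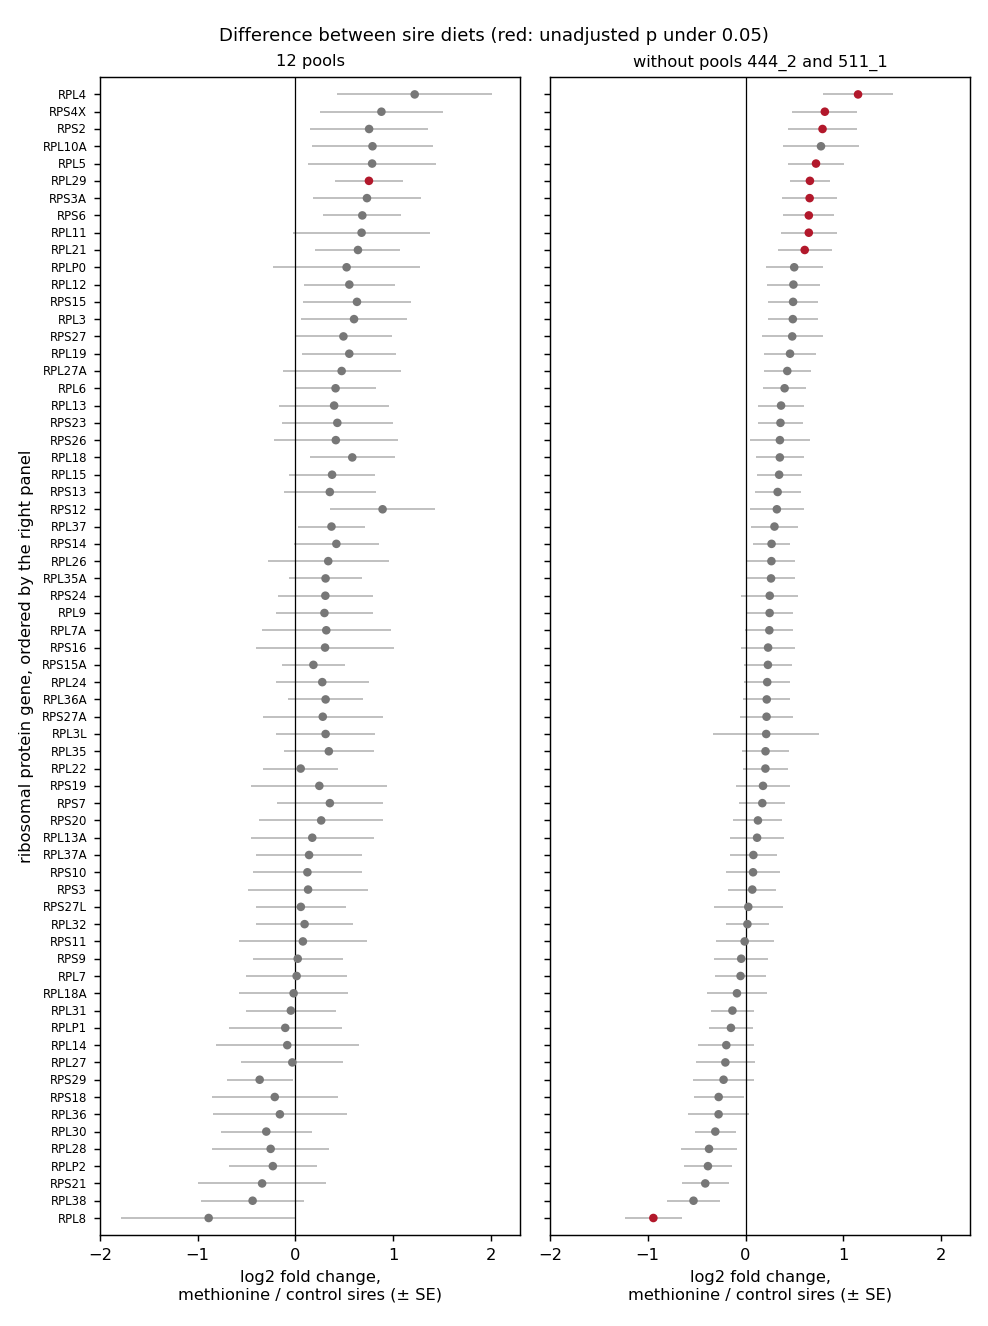
Points give the log2 fold change of 66 ribosomal protein genes (treatment sires over control rams, x axis) with their standard errors as bars, over all 12 pools on the left and without pools Embryo444_2 and Embryo511_1 on the right, and red marks an unadjusted p under 0.05. The bars are shorter on the right (median SE of 0.26, against 0.54 on the left), where RPL4 (1.15) is at the top and RPL8 (-0.94) at the bottom, while on the left RPL29 alone is red.

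The higher values came mainly from Ram424. RPL4, which lines the exit tunnel of the large subunit, was at 1008 to 1691 CPM in the 5 control pools other than Embryo444_2, at 4444, 4439, 2348 and 1644 CPM in the pools of Ram424, and at 1168 CPM in pool Embryo498_1. Its log2 fold change over the 10 pools was 1.15 ± 0.36 (SE; edgeR FDR = 0.270; exact permutation p = 0.0397 over the 10 pools). The pool of Ram498 thus lay inside the control range. RPL5 showed the same, with 439 to 839 CPM in those control pools, 1028 to 1607 CPM in the pools of Ram424 and 606 CPM in Embryo498_1. RPS6, the small subunit protein that S6 kinases phosphorylate, was at 116 to 167 CPM with control rams, 148 to 299 CPM with Ram424 and 115 CPM in Embryo498_1, below all 5 control pools. Of the 10 higher genes, RPL29 was the only one for which Embryo498_1 lay above the 5 control pools, and for RPS6, RPS4X and RPS3A it lay below them. The remaining 6 had Embryo498_1 within the control range.

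Across the set, the rams on methionine pointed in different directions. In 28 of the 67 genes at least 3 of the 4 pools of Ram424 lay above all 5 control pools, against 8.90% of all genes. In 35 of the 67 (52.2%) pool Embryo498_1 lay below all 5 control pools, against 15.4% of all genes, and in 2 it lay above them. The gene was highest of all 12 pools in Embryo424_1 for 33 of the 67 and in Embryo423_1, a control pool, for 18. Without Ram424 the median log2 fold change of the 67 genes was -0.76. The methionine side then held only Embryo498_1 and Embryo511_1, the latter with few ribosomal protein reads. Without Ram444, and so without Embryo444_2, the median was 0.01. Most methionine pools came from a single ram, so the diet and that ram cannot be told apart in the comparison over pools, and with the pools of a ram summed the median was -0.08. Pools Embryo424_1 and Embryo424_2 were the most alike of all pairs from 1 ram (Spearman's rho over all genes tested of 0.955, against 0.585 to 0.895 for the other pairs), but they differed by more than sampling noise and were kept as 2 pools.

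RPL8, which lies close to the site of peptide bond formation, took a smaller share of the ribosomal protein reads in every pool from treatment sires. It made up 18.6%, 25.3%, 25.3%, 23.2%, 29.2% and 28.5% of those reads in pools Embryo410_1, Embryo410_2, Embryo423_1, Embryo423_2, Embryo444_1 and Embryo444_2. In the methionine pools it made up 9.41%, 10.6%, 12.6% and 15.8% with Ram424, 14.7% with Ram498 and 9.60% with Ram511. The groups did not overlap, also in the 2 pools with few ribosomal protein reads, and the largest 95% Wilson half-width was 1.7 points. The means were 25.0% ± 3.85 and 12.1% ± 2.70 (SD, n = 6 each), and by ram they were 22.0%, 24.2% and 28.9% against 12.1%, 14.7% and 9.60%. This measure was chosen after the values were seen and is given as a description.

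In CPM, RPL8 was at 5610, 6946, 10342, 7298, 8223 and 552 in pools Embryo410_1 to Embryo444_2 and at 4066, 4385, 4604, 4209, 2874 and 933 in Embryo424_1 to Embryo511_1. Apart from Embryo444_2, each control pool was above each methionine pool. The log2 fold change was -0.89 ± 0.90 (SE; edgeR FDR = 0.815) over 12 pools and -0.94 ± 0.29 (SE; edgeR FDR = 0.276) over 10. The exact permutation test gave p = 0.422 over all 12 pools and p = 0.300 over the 6 rams. The exact permutation test over the 10 pools gave p = 0.00794, the smallest it can give. Those 10 pools were chosen after the values were seen. They leave out Embryo444_2, the only control pool that was not above each methionine pool.

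RPL4 took a larger share with treatment sires. It was 1.06% to 5.62% of the ribosomal protein reads in the control pools and 5.79% to 10.7% in the methionine pools. With RPL8 left out of the reads these ranges were 1.49% to 6.91% and 6.41% to 12.0% and overlapped. The reads of RPL4 over those of RPL8 were 0.0372 to 0.301 with control rams and 0.391 to 1.09 with treatment sires. Since the 2 shares separated in opposite directions, their ratio had to separate as well and adds no further result. Over all 12 pools, 3 of the 67 genes did not overlap between diets as a share of the ribosomal protein reads, and the other was RPL3, a large subunit protein near the same catalytic site (0.989% to 1.45% with control rams, 1.46% to 2.41% with treatment sires). Without RPL8 in the reads, RPL3 took 1.38% to 1.89% and 1.67% to 2.66%, which overlapped. Of all genes tested, 0.0485% did not overlap between diets when taken relative to the ribosomal protein reads. These reads were few in Embryo444_2 and Embryo511_1, so most other genes rise there, in a pool of each diet, and few can separate. The 0.0485% is thus a low background, and in CPM 0.352% of all genes did not overlap. The reads of a gene of the set are part of its own denominator, so the shares of the set are not independent of each other. Over the 10 pools 8 of the 67 did not overlap as such a share, with RPL19, RPL27A, RPL5, RPL6 and RPS6 added, against 1.29% of all genes. The small subunit as a whole took 23.2% to 28.3% of the ribosomal protein reads with control rams and 28.9% to 36.8% with treatment sires. With RPL8 left out of the reads these ranges were 32.4% to 37.2% and 33.9% to 40.7% and overlapped.

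**Figure D4:**
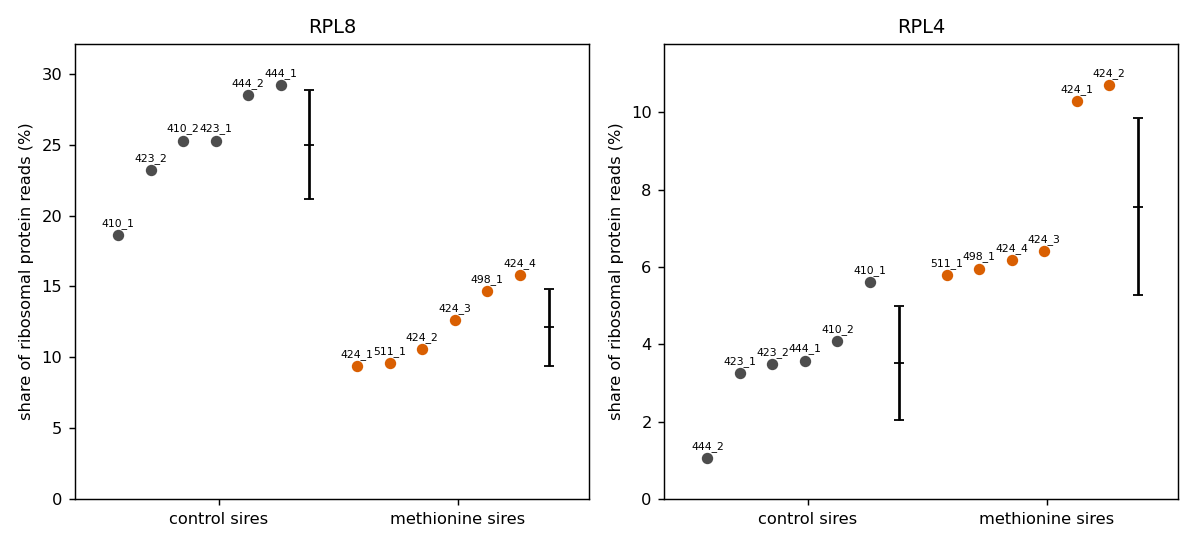
Points give the share of all ribosomal protein reads (percent, y axis) on RPL8 (left) and RPL4 (right) in each embryo pool, labelled by ram and pool, with the mean and SD of each group of 6 beside them. All control pools (18.6% to 29.2%) are above all methionine pools (9.41% to 15.8%) for RPL8, and below them for RPL4.

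The other named genes of the set had no p under 0.05 in either comparison except where given above. Of the stalk proteins, RPLP0 had a log2 fold change of 0.52 ± 0.76, RPLP1 of -0.10 ± 0.58 and RPLP2 of -0.23 ± 0.45 (SE) over 12 pools. RPL14 and RPL36, large subunit proteins with many reads, had -0.08 ± 0.73 and -0.16 ± 0.68. RPS27A, made as a fusion with ubiquitin, had 0.28 ± 0.62. All of these differences were within 1 SE of 0. RPS12 had 0.89 ± 0.53 over 12 pools and 0.32 ± 0.28 over 10, with 0.58 without Embryo511_1 alone and 0.65 without Embryo444_2 alone. RPL38, known for its part in the translation of Hox messenger RNAs, was at 60.2 to 179 CPM in the 5 control pools and 62.6 to 87.2 CPM in the 5 methionine pools and had -0.53 ± 0.27 over 10 pools (SE; edgeR FDR = 0.443).

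The genes with a suffix behaved apart from one another. RPS4X, a small subunit gene of the X chromosome in mammals, was at 381 to 660 CPM in the 5 control pools, 592 to 1479 CPM with Ram424 and 355 CPM in Embryo498_1. RPL3L was at 12.1 to 28.6 CPM with control rams and 5.74 to 62.0 CPM with treatment sires, with its highest value in Embryo498_1, where 35 genes of the set were below the control range. RPS27L, a copy of RPS27 that p53 can induce, was at 17.7 to 116 CPM with control rams and 19.8 to 133 CPM with treatment sires (log2 fold change of 0.06 ± 0.46, SE). Without Ram424, which leaves only Embryo498_1 and Embryo511_1 on the methionine side, RPL3L was higher and RPS27L lower at an unadjusted p under 0.05. Among the 10 pools the coefficient of variation of a gene of the set was 0.164 to 0.792, with a median of 0.310, against 0.336 for all genes. The median Pearson correlation between 2 genes of the set over these pools was 0.642, where all genes share the same 10 libraries.

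Genes that act with the ribosome were compared in the same fits. Of 31 translation factors tested, 4 were higher and 0 lower at an unadjusted p under 0.05 over 12 pools, and 15 were higher and 0 lower over 10. Among those 10, all methionine pools but Embryo498_1 came from Ram424. In Embryo498_1 the median log2 ratio of the translation factors to the median of the 10 pools was -0.25. Of all genes, 3.55% were higher and 4.37% lower over 12 pools, and 5.74% and 6.18% over 10, and the same shares apply to each list that follows. Over 12 pools 14 genes of these lists and of the mitochondrial ribosomal proteins had a p under 0.05, and 2 had one with pools summed per ram or with the ram as a random effect. EIF3L, a subunit of an initiation factor, had a log2 fold change of 0.82 ± 0.30 (SE; edgeR FDR = 0.585), and EIF4E, which binds the cap of messenger RNA, had 0.84 ± 0.32 (SE; edgeR FDR = 0.585). Of 47 genes of ribosome biogenesis, 5 were higher and 0 lower over 12 pools, led by GAR1 (0.95 ± 0.32) and GNL3 (0.88 ± 0.32), and 6 were higher over 10. Of 10 regulators, 0 passed over 12 pools, with TSC2 at 0.70 ± 0.43 (-0.11 over 10 pools, with 311 CPM in Embryo511_1 and 46.2 to 93.0 CPM in the others) and LARP1, which binds the messenger RNAs of ribosomal proteins, at 0.69 ± 0.53, and LARP1 and RPS6KB1, an S6 kinase, were the 2 higher over 10. Of the 6 near copies and fusions outside the naming rule, 0 passed in either comparison, with RPL26L1 at 0.48 ± 0.28 and RPL7L1 at 0.57 ± 0.35. None of these lists held a gene with an FDR under 0.05 in edgeR over 12 or 10 pools.

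Mitochondrial ribosomal proteins, which serve the separate ribosome of the mitochondrion, gave 4 higher and 1 lower of 71 over 12 pools and 8 higher and 1 lower over 10, beside 3.55% and 4.37% of all genes over 12 pools and 5.74% and 6.18% over 10. The lower one was MRPS2, at 106, 178, 52.1, 120, 19.2 and 3.54 CPM in pools Embryo410_1 to Embryo444_2 and 19.6, 17.0, 12.7, 18.2, 27.7 and 1.98 CPM in Embryo424_1 to Embryo511_1. Both pools of Ram410 and Ram423 were above every methionine pool, while those of Ram444 were not. Its log2 fold change was -2.27 ± 0.65 (SE; edgeR FDR = 0.584). MRPL3 had 0.72 ± 0.24 (SE; edgeR FDR = 0.584). In pool Embryo444_2 the median log2 ratio was -1.49 for mitochondrial ribosomal proteins, -2.21 for translation factors and -0.58 for biogenesis genes, against -3.92 for the cytosolic set.

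In the sperm of the same rams, reduced representation bisulfite sequencing gave methylated and total reads at single cytosines, and 1 cytosine that the study lists between diets was annotated beside RPL30, a large subunit protein. It lies at position 87015500 of chromosome 9 (minus strand, Oar_rambouillet_v1.0), outside genes, also near MATN2 and a small nucleolar RNA gene that sits inside RPL30. It was methylated in 75.0% of reads in Ram410 (95% Wilson interval 55.1 to 88.0), 78.3% in Ram423 (58.1 to 90.3) and 86.7% in Ram444 (70.3 to 94.7). On methionine it was methylated in 50.0% in Ram424 (31.4 to 68.6), 37.5% in Ram498 (22.9 to 54.7) and 28.6% in Ram511 (15.3 to 47.1). The 3 rams of each diet did not overlap, and the coverage was 23 to 32 reads. The group means were 80.0% ± 6.03 and 38.7% ± 10.8 (SD, n = 3 each). As this site was chosen for its difference, the values are a description.

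The neighbouring cytosines followed it in part. Of the 15 other cytosines within 1000 bases, 13 had a lower mean in the methionine-treated rams, against 33.3% of all cytosines of the table. At 7 of the 15 all treated rams were below all control rams, against 1.35% of all cytosines. Neighbours may share reads with the listed site, which was chosen for its difference, and with each other, so these counts are a description. The shares of all cytosines include sites with little methylation, which have little room to be lower. Over the 15 cytosines from 87015282 to 87015539, the listed one included, the mean level was 73.8%, 67.3% and 86.7% in Ram410, Ram423 and Ram444 and 65.6%, 41.5% and 34.3% in Ram424, Ram498 and Ram511. Ram424 was thus close to Ram423, and the other treated rams were lower. At 87016018 the means were alike, with 20.1% ± 7.41 and 20.1% ± 2.55 (SD, n = 3 each). In the embryos RPL30 was at 221, 148, 281, 202, 201 and 31.9 CPM in pools Embryo410_1 to Embryo444_2 and at 188, 195, 180, 158, 136 and 23.8 CPM in Embryo424_1 to Embryo511_1. The ranges overlapped, and the log2 fold change was -0.30 ± 0.47 (SE; edgeR FDR = 0.884).

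**Figure D5:**
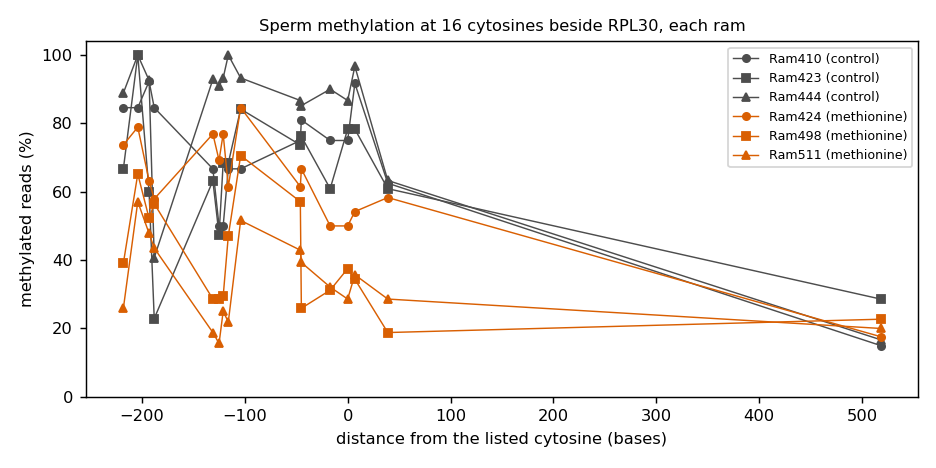
Points give the percent of methylated reads (y axis) at 16 cytosines in sperm against the distance in bases from the cytosine listed beside RPL30 (x axis), with a line for each ram, grey for control rams and orange for methionine-treated rams. At distance 0 the control rams are at 75.0% to 86.7% and the treated rams at 28.6% to 50.0%, and at the rightmost cytosine all 6 rams are close together.

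The reads themselves set limits to single genes. STAR counts reads that map to a single place, so genes with near copies elsewhere in the genome can lose reads, and their values are uncertain. Small nucleolar RNA genes lie inside 21 of the 67 genes, 41 of them in all, and 7 of the 67 overlap another coding gene, among them RPL35A with IQCG, RPS6 with DENND4C and RPL27A with TRIM66. The median log2 fold change over 12 pools was 0.37 for the 21 host genes and 0.30 for the other 45 matched genes.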

How the data were processed

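RNA sequencing of 12 embryo pools and RRBS of sperm from 6 rams were used. The authors trimmed the RNA reads, aligned them to Oar_rambouillet_v1.0 with STAR and deposited raw counts per gene; the strand setting is not given in the sources used here. For sperm they deposited counts of methylated reads and coverage per cytosine after Bismark alignment and removal of duplicates. The whole table was filtered (at least 15 counts in more than 3 pools), scaled by TMM and fitted in R 4.3.3 with edgeR 4.0.16 (quasi-likelihood F test, diet being the only term, Benjamini-Hochberg FDR over all genes). limma 3.58.1 and DESeq2 1.42.0 served for alternatives. Single genes were also compared by exact permutation of log2(CPM + 1). The script was tested on simulated data. Pools of 1 ram share a sire, and p-values measure the spread between pools. The RNA was amplified and carries no molecular identifiers, so intervals cover counting error only. No annotation of the build was given. A RefSeq gene table of another assembly (ARS-UI_Ramb_v3.0) served only for names and for which genes lie beside or inside others. No gene lengths were used, so orders and ratios of reads between genes are not corrected for transcript length. The members and lists were chosen with earlier results of these data known. Named genes were the stalk, RPL5, RPL11, RPS6 and RPS27A, those with an X or L suffix, the 5 with highest and lowest mean CPM, the 4 of smallest p in each direction, the 4 of highest and lowest coefficient of variation, and the gene beside a sperm DMC; in other lists, the 2 of smallest p. RPL3, RPL19, RPL21, RPL27A, RPL6, RPS3A, RPS21, RPL26 and RPS16 were named after their values were seen. Some genes are not reported here by name.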

Additional observations from a re-analysis of the deposited data

Results flagged for a closer look

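In groups of 6 pools, a value was singled out where its gap to the nearest pool was large against the range of its group by Dixon's test at the 95% level, which chance alone gives in about 1 in 20 groups. Of 62 groups examined, 8 held such a value. The genes of the set rise and fall together over the pools, and some shares contain named genes. The groups are thus not independent, and this count cannot be set against 1 in 20. In control pool Embryo444_2 the values singled out were the share of counts on ribosomal protein genes (0.233%), the share of the 3 stalk genes among ribosomal protein reads (2.64%), RPLP0 (29.7 CPM), RPL35A (8.49 CPM) and RPS14 (8.49 CPM). RPL35A and RPS14 are genes of the large and the small subunit whose loss is known to impair red cell formation. In methionine pool Embryo511_1 they were RPS12, which was high (907 CPM), and RPL38 (20.8 CPM) and RPL30 (23.8 CPM), which were low. All 8 values came from the 2 pools with few ribosomal protein reads.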

How the results depend on the processing

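The count of ribosomal protein genes higher at an unadjusted p under 0.05 (1 over 12 pools) was 0 with pools summed per ram, 0 with the ram as a random effect, 0 with pools Embryo424_1 and Embryo424_2 summed, 10 without pools Embryo444_2 and Embryo511_1 (11 with DESeq2, 10 with RLE, 2 with the ram as a random effect), 3 without Embryo424_2 as well, and 0 to 3 with a pool or ram left out (3 without Embryo511_1, by RPL29, RPS6 and RPS2). The count lower was 1 in each of the fits without Embryo444_2 and Embryo511_1, and 0 to 1 with a pool or ram left out (RPS27L without Ram424, RPL38 without Ram444). Calls at FDR under 0.05 stayed at 0 except for 1 with DESeq2 on the 10 pools, a fit that called 103 of all 16161 genes. It called 4 of the other genes of the pathway. Their count at p under 0.05 (14) was 2 with summed pools, 2 with the random effect, 6 with Embryo424_1 and Embryo424_2 summed, 32 on the 10 pools (33 with DESeq2, 33 with RLE) and 7 to 30 with a pool or ram left out (7 without Embryo424_1 or Embryo424_2, 8 without Ram424, 30 without Embryo511_1). Named genes with an exact p under 0.05 (1) numbered 0 over rams, 3 on the 10 pools and 0 to 2 with a pool left out. The median log2 fold change (0.31) was -0.76 to 0.58 with a ram or pool left out. The low end was without Ram424, where Embryo498_1 and Embryo511_1 were the only methionine pools. The difference in share of counts (0.13 points) was -0.34 (without Embryo444_2) to 0.49 (without Embryo511_1). The methylation difference beside RPL30 in pooled reads (-42.4 points) was -47.2 to -37.7 with a ram left out.

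The log2 fold changes of single genes changed sign under some alternatives, RPL4 (1.22) among them, and the cause was not tested. With pools summed per ram this held for RPS27A (-0.15), RPS27L (-0.42), RPS15A (-0.115) and RPL22 (-0.32), and with the ram as a random effect for RPLP0 (-0.0515), RPLP2 (0.14), RPS27L (-0.22), RPL14 (0.35), RPL36 (0.31), RPL22 (-0.38), RPL38 (0.0444) and RPS2 (-0.30), and on the 10 pools with the ram as a random effect for RPL3L (-0.26) and RPS27L (-0.17). RPS27L was -0.18 without Embryo444_2, Embryo511_1 and Embryo424_2, and with Embryo424_1 and Embryo424_2 summed it was -0.20 and RPL22 was -0.0856. With a pool or ram left out, the ranges were -0.99 to 1.28 (RPL10A), -0.82 to 0.96 (RPL11), -0.83 to 0.40 (RPL14), -1.01 to 0.28 (RPL22), -0.48 to 0.47 (RPL35A), -0.89 to 0.28 (RPL36), -0.93 to 0.21 (RPL38), -0.25 to 1.32 (RPL3L), -0.26 to 1.49 (RPL4), -0.47 to 1.03 (RPL5), -0.83 to 0.77 (RPLP0), -1.16 to 0.32 (RPLP1), -0.53 to 0.28 (RPLP2), -0.0214 to 0.57 (RPS14), -0.66 to 0.35 (RPS15A), -0.98 to 1.21 (RPS2), -0.83 to 0.48 (RPS27A), -1.39 to 0.28 (RPS27L), -0.60 to 1.21 (RPS4X) and -0.39 to 0.85 (RPS6), with one end mostly without Ram424. RPL29, RPL8, RPL30, RPS12 and RPS29 kept their sign under every alternative run. The likelihood-ratio test, DESeq2 and RLE on 12 pools and the other filters left the counts of ribosomal protein genes as they were. The coverage minimum, F test, overdispersion and window for sperm were not run, since no gene positions of the build were at hand. No paired analysis was possible because the diets share no ram, and a pool number only counts the pools of a ram. The low counts of Embryo444_2 limit its single values.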

Other observations

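RPL10A, a protein of the mobile L1 stalk, and RPS2, near the entry of messenger RNA, peaked together in a single pool. RPL10A was at 1323 CPM in Embryo424_3, against 234 to 680 CPM in the other 9 pools that exclude Embryo444_2 and Embryo511_1. RPS2 was at 1075 CPM in Embryo424_3, against 212 to 486 CPM. These genes had log2 fold changes over 12 pools of 0.79 ± 0.61 and 0.75 ± 0.60 (SE). The other 3 pools of the ram had 316 to 680 CPM for RPL10A and 360 to 486 CPM for RPS2.

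RPS14 was among the steadiest genes of the set, with 130 to 142 CPM in the 5 control pools other than Embryo444_2 and 131 to 197 CPM in the 5 methionine pools other than Embryo511_1.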
